A study of Mus musculus with 12 samples.

Results

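Genes that mark the endothelium of the liver sinusoids were followed across 12 mouse liver libraries. The 10 genes, chosen by name as markers of this endothelium, were Lyve1, Stab1, Stab2, Clec4g, Mrc1, Pecam1, Cdh5, Kdr, Tek and Eng, out of 19852 genes in the deposited table. All 10 were found under these symbols and reached 0.5 RPKM (reads scaled to transcript length and to the library's mapped reads) in all 12 libraries, so all were among the 10568 genes tested. Lyve1 was 4.43-fold higher in female ARE-Del than in female WT livers and 4.92-fold higher in male ARE-Del than in male WT livers, as ratios of mean RPKM. Pecam1 also passed the test in females, where 25.8% of all tested genes were called higher, and Mrc1 in males, where 19.5% were; both were higher in ARE-Del livers. The Pecam1 call was lost under 8 of 23 alternative settings and the Mrc1 call under 13 of 23. The other 7 genes passed the test in neither sex.

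The sinusoids are the capillaries of the liver, and their endothelium is perforated by open pores and lacks a continuous basement membrane. Its cells clear hyaluronan, collagen fragments, lipoproteins and immune complexes from the blood through endocytic receptors, and they share the sinusoid with Kupffer cells, the resident macrophages of the liver. Loss of the pores and gain of a basement membrane, called capillarisation, accompanies chronic liver injury. Interferon-gamma, made mainly by T and NK cells, activates macrophages and acts on endothelial cells, which carry its receptor.

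The libraries were made from liver RNA of C57BL/6 mice at 20 weeks of age and formed 4 groups of 3: female ARE-Del, female WT littermates, male ARE-Del and male WT littermates. The ARE-Del allele removes an AU-rich element that shortens the life of the Ifng message, and the series uses it as a model of lasting interferon-gamma expression; the labels name no cell type to which the allele is restricted, and the protocol writes the genotype as ARE-Del-/-. Whole liver was sequenced, so every value is a level in bulk tissue in which hepatocytes dominate. Ifng, the gene that carries the allele, lay between 0.0742 and 0.238 RPKM in the 6 ARE-Del libraries and between 0 and 0.0382 RPKM in the 6 WT libraries, below the filter on low values. Summed RPKM ran from 173476 to 208647 per library, and relative depth, estimated from steps between low values, from 0.909 to 1.45 times that of female WT 1. The sources used here give no read totals, so no counting interval was possible. The library labelled female ARE-Del 2 held 0.0456 RPKM of Xist, the transcript of the inactive X chromosome, against 33.0 to 45.6 RPKM in the other 5 libraries labelled female, and the calls in females are therefore also given without it. The labels do not say beyond the number of samples that the 3 libraries of a group are separate animals. The p-values measure the spread between these libraries, which limma in part pools over genes.

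The endocytic receptors come first. Lyve1 encodes a receptor for hyaluronan that is shared by sinusoidal and lymphatic endothelium. It measured 4.23, 8.15 and 8.82 RPKM in female ARE-Del livers, against 2.02, 1.36 and 1.40 RPKM in female WT livers. It measured 7.35, 6.40 and 3.90 RPKM in male ARE-Del livers, against 1.31, 1.01 and 1.28 RPKM in male WT livers. Every ARE-Del library lay above every WT library, in each sex and across the sexes. On the log2(RPKM + 1) scale, the change was 1.59 ± 0.23 in females (SE; limma, Benjamini-Hochberg adjusted p = 0.0002) and 1.61 ± 0.23 in males (adjusted p = 0.000402). Lyve1 kept its call in both sexes when any single library was left out, with adjusted p of at most 0.00158 in females and 0.00244 in males. Without the library labelled female ARE-Del 2 the change in females was 1.48 (limma, adjusted p = 0.00121).

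Stab1 and Stab2 encode the stabilins, a pair of very large scavenger receptors, of which Stab2 is the main receptor for the clearance of circulating hyaluronan. Mrc1 encodes the mannose receptor, which takes up glycoproteins and collagen fragments in sinusoidal endothelium and is also made by macrophages. The starts of these 3 genes are shown because the stabilins and Mrc1 varied together from library to library while only Mrc1 passed the test. Each stretch runs 5′ to 3′ from 250 bases before to 50 bases after the gene's start (RefSeq, build GRCm38.p6, whereas the deposited values were made on mm9), and capitals mark the letters CAGGAA, a core sequence bound by ETS factors, read on either strand. Mrc1 lies at chr2:14229164-14229463 on the plus strand, Stab1 at chr14:31168592-31168891 on the minus strand and Stab2 at chr10:87007893-87008192 on the minus strand. The last 50 bases of each stretch lie downstream of the start of transcription.
Mrc1: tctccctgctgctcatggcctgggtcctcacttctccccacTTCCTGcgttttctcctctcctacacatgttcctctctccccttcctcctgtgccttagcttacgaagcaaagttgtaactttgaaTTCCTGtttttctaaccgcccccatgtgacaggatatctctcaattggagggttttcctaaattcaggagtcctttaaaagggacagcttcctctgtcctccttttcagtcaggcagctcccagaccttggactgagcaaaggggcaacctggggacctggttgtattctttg
Stab1: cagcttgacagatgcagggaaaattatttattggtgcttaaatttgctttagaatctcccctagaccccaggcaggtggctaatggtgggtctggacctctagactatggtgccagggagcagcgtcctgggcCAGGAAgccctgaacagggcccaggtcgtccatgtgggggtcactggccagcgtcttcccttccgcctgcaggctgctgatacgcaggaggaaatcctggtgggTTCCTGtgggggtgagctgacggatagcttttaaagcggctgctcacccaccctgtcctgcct
Stab2: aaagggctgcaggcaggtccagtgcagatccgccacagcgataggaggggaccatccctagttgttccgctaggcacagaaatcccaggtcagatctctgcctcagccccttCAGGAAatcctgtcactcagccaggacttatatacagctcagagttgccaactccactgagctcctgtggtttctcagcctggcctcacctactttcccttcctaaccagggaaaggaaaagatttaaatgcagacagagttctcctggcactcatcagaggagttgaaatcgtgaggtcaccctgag
These letters occurred in 6 of the 7 members' promoters that had an entry and in 30.6% of 32851 promoters of the same length. The letters GAAANNGAA, a core of the interferon-stimulated response element, likewise read on both strands, occurred in 0 of the 7, against 8.56% of all promoters. A match or its lack describes these windows only. Lyve1, Pecam1 and Cdh5 had no entry.

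Stab1 measured 2.36, 3.21 and 4.30 RPKM in female ARE-Del livers, against 3.29, 1.45 and 2.50 RPKM in female WT livers. In males the values were 2.76, 2.21 and 1.74 RPKM in ARE-Del livers, against 1.04, 1.65 and 1.60 RPKM in WT livers. The female groups overlapped and the male groups did not. Its log2 change was 0.34 ± 0.21 in females (limma, adjusted p = 0.234) and 0.41 ± 0.21 in males (adjusted p = 0.183). Stab2 measured 3.53, 4.98 and 6.13 RPKM in female ARE-Del livers, against 6.72, 2.96 and 5.36 RPKM in female WT livers. The male values were 4.77, 3.98 and 3.30 RPKM in ARE-Del livers, against 2.06, 3.08 and 3.09 RPKM in WT livers. Stab2 thus had its highest value in a female WT library, while in males the ARE-Del libraries lay above the WT libraries. Its log2 change was -0.0024 ± 0.23 in females (limma, adjusted p = 0.995) and 0.43 ± 0.23 in males (adjusted p = 0.212).

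Mrc1 measured 9.52, 12.7 and 13.5 RPKM in female ARE-Del livers, against 10.4, 3.96 and 8.33 RPKM in female WT livers. In males it measured 9.23, 8.73 and 7.03 RPKM in ARE-Del livers, against 3.45, 5.11 and 4.90 RPKM in WT livers. The female groups overlapped through 1 library, female WT 1, and the male groups were apart. Mrc1 passed the test in males with a log2 change of 0.77 ± 0.25 (limma, adjusted p = 0.0471) and missed it in females, at 0.66 ± 0.25 (adjusted p = 0.0653). The male call lies close to the threshold: it held in 3 of the 12 fits that left out 1 library, those without female WT 1, female WT 2 or female ARE-Del 1 (adjusted p = 0.0291, 0.00539 and 0.048), and reached an adjusted p of 0.175 without male WT 1. It was also lost under median-of-ratios scaling, quantile normalization and no filter (adjusted p = 0.0815, 0.0824 and 0.121). Without the library labelled female ARE-Del 2, the adjusted p of Mrc1 was 0.14 in females and 0.0551 in males. Clec4g encodes a C-type lectin that in liver is characteristic of sinusoidal endothelium. It measured 13.6, 16.7 and 21.3 RPKM in female ARE-Del livers, against 19.9, 10.8 and 17.6 RPKM in female WT livers. In males the values were 18.3, 17.4 and 10.8 RPKM in ARE-Del livers, against 9.60, 11.9 and 12.9 RPKM in WT livers. The groups overlapped in both sexes. Its log2 change was 0.11 ± 0.24 in females (limma, adjusted p = 0.767) and 0.38 ± 0.24 in males (adjusted p = 0.277).

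**Figure D1:**
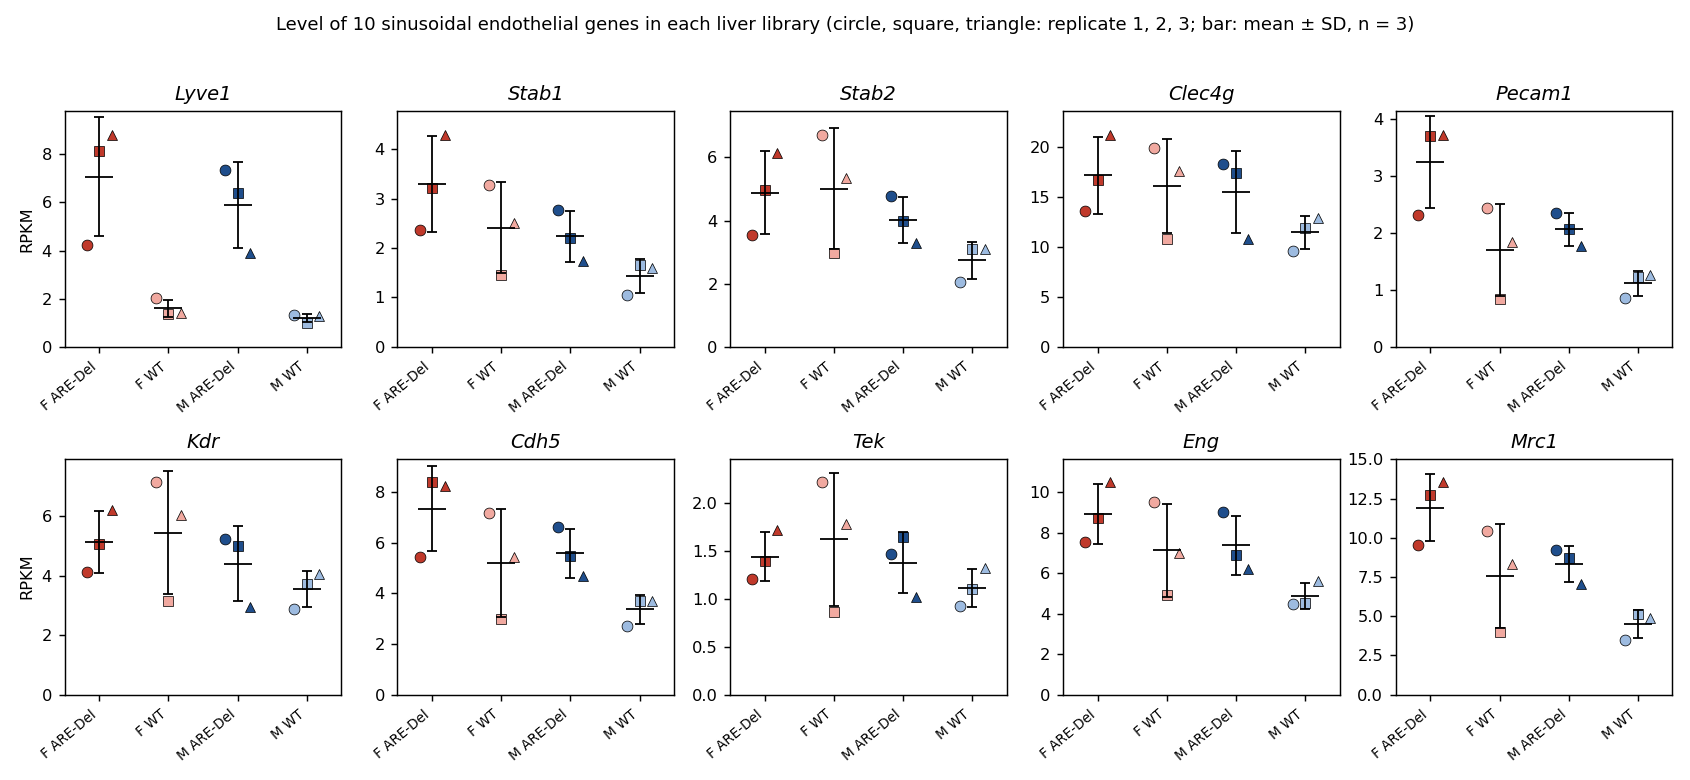
RPKM of the 10 sinusoidal endothelial genes in each library (points) with the mean and SD of each group of 3 (bars); F and M are female and male. Lyve1 is the gene in which all 6 ARE-Del libraries lie above all 6 WT libraries, while the other 9 overlap in females.

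Among the adhesion molecules, Pecam1 encodes CD31, found at contacts between endothelial cells and also on platelets and leukocytes. It measured 2.31, 3.69 and 3.72 RPKM in female ARE-Del livers, against 2.43, 0.841 and 1.84 RPKM in female WT livers. The male values were 2.34, 2.07 and 1.77 RPKM in ARE-Del livers, against 0.857, 1.23 and 1.25 RPKM in WT livers. The female groups overlapped by 1 library on each side, and the male groups were apart. Pecam1 passed the test in females with a log2 change of 0.68 ± 0.20 (limma, adjusted p = 0.0211) and missed it in males, at 0.53 ± 0.20 (adjusted p = 0.0756). The female call was lost without the library labelled female ARE-Del 2 (0.60, adjusted p = 0.068), without female ARE-Del 3 (0.59, adjusted p = 0.0825) and without female WT 2 (0.43, adjusted p = 0.0706), as well as without the filter (adjusted p = 0.0583) and in a fit of the 6 female libraries alone (adjusted p = 0.062). Cdh5 encodes VE-cadherin, the cadherin of endothelial junctions. It measured 5.42, 8.39 and 8.23 RPKM in female ARE-Del livers, against 7.19, 2.97 and 5.45 RPKM in female WT livers. In males it measured 6.6, 5.46 and 4.68 RPKM in ARE-Del livers, against 2.70, 3.71 and 3.71 RPKM in WT livers. Here too the female groups overlapped and the male groups did not. The log2 change of Cdh5 was 0.47 ± 0.23 in females (limma, adjusted p = 0.146) and 0.59 ± 0.23 in males (adjusted p = 0.0906).

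The signalling receptors Kdr, Tek and Eng passed the test in neither sex. Kdr encodes the main receptor for vascular endothelial growth factor A. It measured 4.14, 5.07 and 6.20 RPKM in female ARE-Del livers, against 7.14, 3.14 and 6.05 RPKM in female WT livers. In males the values were 5.25, 5.01 and 2.95 RPKM in ARE-Del livers, against 2.89, 3.71 and 4.07 RPKM in WT livers. The groups overlapped in both sexes, and the log2 change was -0.03 ± 0.24 in females (limma, adjusted p = 0.945) and 0.23 ± 0.24 in males (adjusted p = 0.535). Tek encodes Tie2, the receptor for angiopoietins. It measured 1.21, 1.39 and 1.72 RPKM in female ARE-Del livers, against 2.21, 0.859 and 1.78 RPKM in female WT livers. The male values were 1.47, 1.64 and 1.02 RPKM in ARE-Del livers, against 0.920, 1.10 and 1.32 RPKM in WT livers. The groups again overlapped in both sexes, with log2 changes of -0.07 ± 0.17 in females (limma, adjusted p = 0.788) and 0.16 ± 0.17 in males (adjusted p = 0.531). Eng encodes endoglin, a co-receptor for BMP9 and TGF-beta. It measured 7.52, 8.72 and 10.5 RPKM in female ARE-Del livers, against 9.49, 4.90 and 7.01 RPKM in female WT livers. In males it measured 9.01, 6.90 and 6.19 RPKM in ARE-Del livers, against 4.46, 4.51 and 5.60 RPKM in WT livers. Eng overlapped in females and was apart in males, with log2 changes of 0.31 ± 0.19 in females (limma, adjusted p = 0.236) and 0.51 ± 0.19 in males (adjusted p = 0.0771).

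Counted together, 2 of the 10 genes passed the test as higher in ARE-Del females (Lyve1 and Pecam1), where 25.8% of all tested genes did. No member was lower in females at the adjusted threshold or at an unadjusted p below 0.05, where 5.53% of all genes were called lower. In males 2 of the 10 were higher (Lyve1 and Mrc1), against 19.5% of all genes, and 0 were lower at either threshold, against 2.04%. At an unadjusted p below 0.05, 3 members in females and 5 in males passed, against 41.8% and 35.2% of all genes. Without the library labelled female ARE-Del 2, Lyve1 was the 1 member called in each sex, against 26.1% of all genes called higher in females and 20.1% in males. The female changes were then 0.34 for Stab1, -0.03 for Stab2, 0.12 for Clec4g, 0.37 for Cdh5, -0.03 for Kdr, -0.06 for Tek and 0.32 for Eng, with none of these 7 genes called. The members' share of calls was near that of all genes. Their median log2 change was 0.33 in females and 0.47 in males, against 0.09 and 0.10 over all tested genes. The female median rested on single libraries: it was 0.11 without female WT 2 and 0.19 without female ARE-Del 3, against 0.06 and 0.08 over all genes, and 0.52 without female WT 1, against 0.11. The levels themselves did not overlap, with ARE-Del above, for 1 of the 10 in females (Lyve1; 34.9% of all genes) and for 7 of the 10 in males (36.1% of all genes). The count in females was again 1 (46% of all genes) without the library labelled female ARE-Del 2. In bulk tissue, fewer cells of a type and less RNA per cell cannot be told apart.

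The balance of calls over all genes depended on how libraries were scaled. Of the genes called, 82.3% were higher in ARE-Del females and 90.5% in ARE-Del males with the values as deposited. These shares were 52.25% and 55.7% with median-of-ratios scaling, 39.3% and 44.5% with quantile normalization, and 72.0% and 65.7% when libraries were scaled to 17 pan-endothelial genes outside the 10. These scalings moved the median of all genes by -0.10 to -0.16 in females and by -0.11 to -0.19 in males on the log2 scale. Taken relative to the median of all genes, all 10 members lay above it in males under each scaling, and 6 or 7 of 10 in females. Stab2, Kdr and Tek were the members below it in females under each scaling, joined by Clec4g under median-of-ratios scaling. Scaling to the pan-endothelial genes shifts all log2 values of a library alike. It therefore cannot change a position relative to the median, and is no separate check of it.

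Scaling each library to the pan-endothelial genes sets the members against the mean log2 value of those 17 genes. Of these, 3 were themselves called higher in ARE-Del females, and whether their mean tracks endothelial RNA was not tested. On this scale Lyve1 was higher by 1.49 in females (limma, adjusted p = 6.27e-09) and by 1.42 in males (adjusted p = 4.06e-08). Mrc1 was higher by 0.56 in females (limma, adjusted p = 0.0139) and by 0.58 in males (adjusted p = 0.0183). Pecam1 was higher by 0.57 in females (limma, adjusted p = 0.00478), while in males its change of 0.34 missed the threshold (adjusted p = 0.228). So 3 of 10 members were called higher in females, against 9.17% of all genes, and 2 of 10 in males, against 4.03%. None was called lower, against 3.57% of all genes in females and 2.1% in males. This scaling takes out spread that the members share with the 17 genes and can add it to other genes. In females the SE of Mrc1 fell from 0.25 to 0.16, and the share of all genes called higher from 25.8% to 9.17%. The members' share and that of all genes are therefore not a like comparison on this scale. When the library labelled female ARE-Del 2 was left out as well, Lyve1 was at 1.38 in females (limma, adjusted p = 1.67e-10), while Mrc1 (0.51, adjusted p = 0.058) and Pecam1 (0.50, adjusted p = 0.0604) were not called. The SE of Lyve1 was then 0.19, against 0.17 with every library. Its smaller p-value is thus not stronger evidence, as it rests largely on spread pooled over all genes. That left 1 of 10 called higher in females, against 8.43% of all genes.

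**Figure D2:**
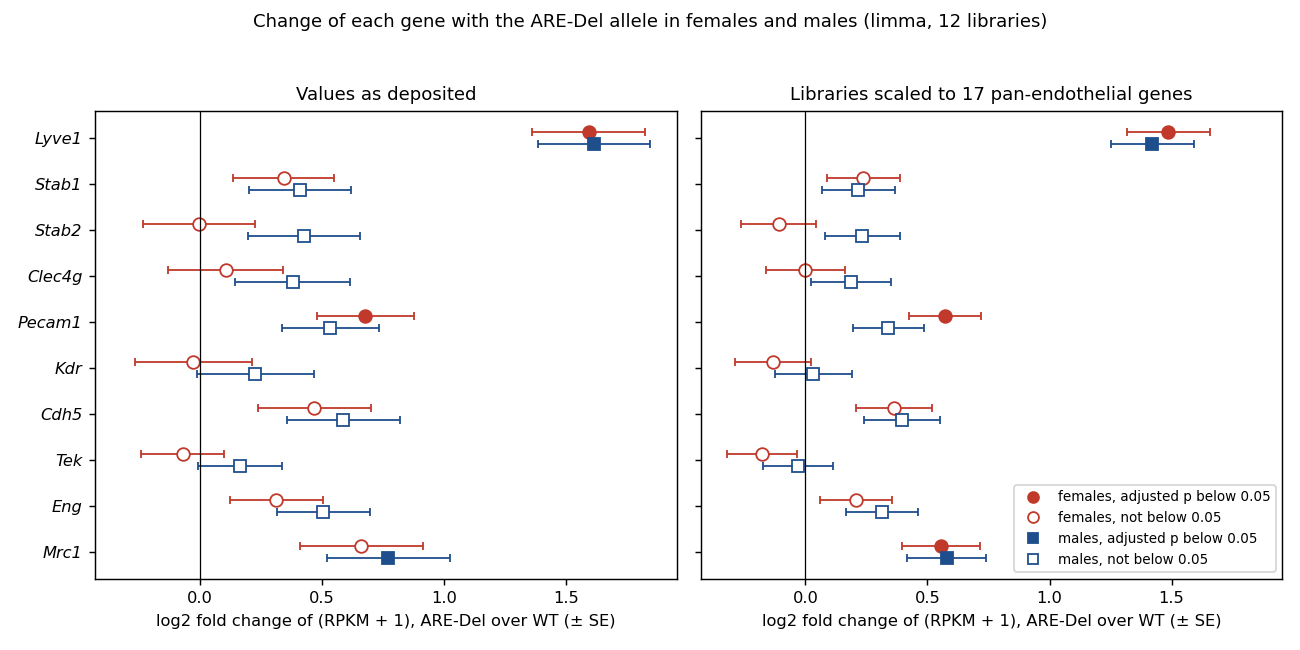
Log2 fold change (ARE-Del over WT, ± SE) of the 10 genes in females and males, with the values as deposited (left) and with libraries scaled to 17 pan-endothelial genes (right); filled symbols mark an adjusted p below 0.05. Lyve1 is filled in both sexes on both scales, and Stab1, Stab2, Clec4g, Kdr, Cdh5, Tek and Eng are open throughout.

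The 10 genes were mostly high or low together across libraries of the same group. All 10 had their lowest value of the group in female ARE-Del 1, in female WT 2 and in male ARE-Del 3, and 9 of the 10 had it in male WT 1, the exception being Lyve1. Of all tested genes, 23.1%, 62.6%, 39.3% and 57.1% had their lowest value in those same libraries. Lyve1 was instead highest of its group in male WT 1 (1.31 RPKM) and lowest in male WT 2 (1.01 RPKM). All 10 were highest of their group in female WT 1, and 9 of 10 in female ARE-Del 3 and in male ARE-Del 1. Of all tested genes, 50.7%, 39.6% and 28.6% had their highest value in these libraries. The summed RPKM of the 10 genes spanned 53.8 to 84.4 in female ARE-Del livers and 33.3 to 70.8 in female WT livers, and 43.4 to 67.1 in male ARE-Del livers and 29.3 to 39.7 in male WT livers. Without female WT 2, a library chosen for its low values, the changes in females were 1.53 for Lyve1 (limma, adjusted p = 0.00158), 0.31 for Mrc1 (adjusted p = 0.221), 0.18 for Cdh5 (adjusted p = 0.523), 0.12 for Stab1 (adjusted p = 0.678) and 0.10 for Eng (adjusted p = 0.698). Stab2, Kdr and Tek were then at -0.28, -0.32 and -0.30, none of them called (adjusted p = 0.329, 0.271 and 0.112). Without female WT 1 instead, Mrc1 (0.91, adjusted p = 0.0165), Cdh5 (0.70, adjusted p = 0.0366) and Eng (0.52, adjusted p = 0.0479) also passed in females. Through the shared estimate of spread, leaving out female WT 2 also let Pecam1, Cdh5 and Eng pass in males, with their changes as before (adjusted p = 0.0211, 0.0284 and 0.0353).

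**Figure D3:**
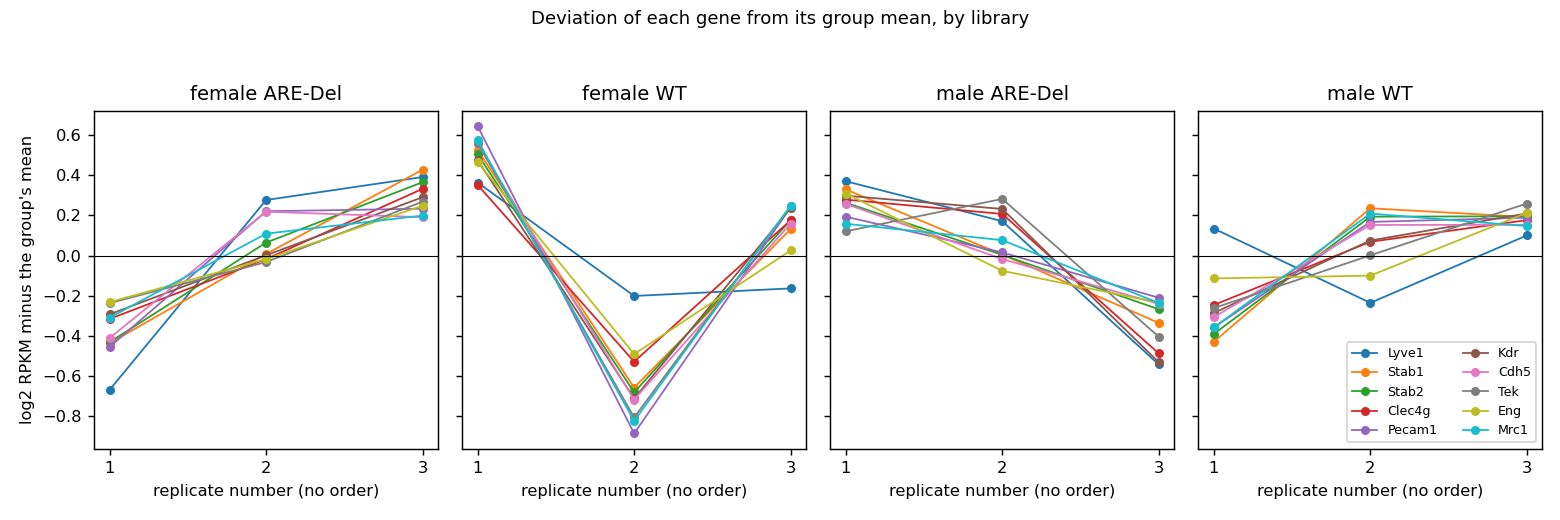
Log2 RPKM of each gene minus its mean in the group, for the 3 libraries of each group; replicate numbers carry no order. Female WT 2 is the lowest library of its group for all 10 genes. In male WT livers Lyve1 is highest in replicate 1, where the other 9 genes are lowest.

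Because the genes mostly moved together, their levels were also compared with each other inside each library, as ratios of RPKM, which already account for transcript length. Cdh5 was taken as the denominator after its values were seen, and the ratios carry no test. The log2 change of Cdh5 itself was 0.47 in females and 0.59 in males, not called in either. A lower ratio to Cdh5 therefore does not by itself mean a lower level. The ratio of Lyve1 to Cdh5 was 0.780 to 1.07 in female ARE-Del livers and 0.257 to 0.460 in female WT livers, and 0.835 to 1.17 in male ARE-Del livers and 0.273 to 0.484 in male WT livers. Pecam1 to Cdh5 was 0.426 to 0.452 in female ARE-Del livers and 0.283 to 0.338 in female WT livers, and 0.354 to 0.379 in male ARE-Del livers and 0.318 to 0.337 in male WT livers. These were the 2 members that lay higher relative to Cdh5 without overlap in both sexes, as 4.86% of all genes did. Kdr to Cdh5 lay lower, at 0.605 to 0.763 in female ARE-Del livers and 0.994 to 1.11 in female WT livers, and at 0.632 to 0.918 in male ARE-Del livers and 1.00 to 1.10 in male WT livers. Stab2 to Cdh5 was 0.594 to 0.745 in female ARE-Del livers and 0.935 to 0.996 in female WT livers, and 0.706 to 0.729 in male ARE-Del livers and 0.762 to 0.832 in male WT livers. Clec4g to Cdh5 was 1.99 to 2.58 in female ARE-Del livers and 2.77 to 3.64 in female WT livers, and 2.30 to 3.19 in male ARE-Del livers and 3.22 to 3.56 in male WT livers. These 3 were lower without overlap in both sexes, as were 5.44% of all genes, and Tek was lower without overlap in females, at 0.166 to 0.223 in ARE-Del livers and 0.289 to 0.327 in WT livers, and overlapped in males. Between the stabilins, Stab2 to Stab1 in females was 1.43 to 1.55 in ARE-Del livers and 2.04 to 2.14 in WT livers, without overlap. In males that ratio was 1.73 to 1.89 in ARE-Del livers and 1.87 to 1.97 in WT livers, so the groups overlapped. Between the hyaluronan receptors, Lyve1 to Stab2 stood at 1.20 to 1.64 in female ARE-Del livers and 0.261 to 0.462 in female WT livers, and at 1.18 to 1.61 in male ARE-Del livers and 0.328 to 0.635 in male WT livers. How many of all genes lay apart in females alone, or relative to Stab1 or Stab2, was not counted. The separations of Tek to Cdh5, Stab2 to Stab1 and Lyve1 to Stab2 are therefore descriptions only. When the library labelled female ARE-Del 2 was left out, the ratios of Lyve1, Pecam1, Kdr, Stab2 and Clec4g to Cdh5 again did not overlap in either sex, and Mrc1 joined those that were higher, at 1.64 to 1.75 in female ARE-Del livers and 1.33 to 1.53 in female WT livers (5.12% of all genes then lay higher and 5.49% lower).

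**Figure D4:**
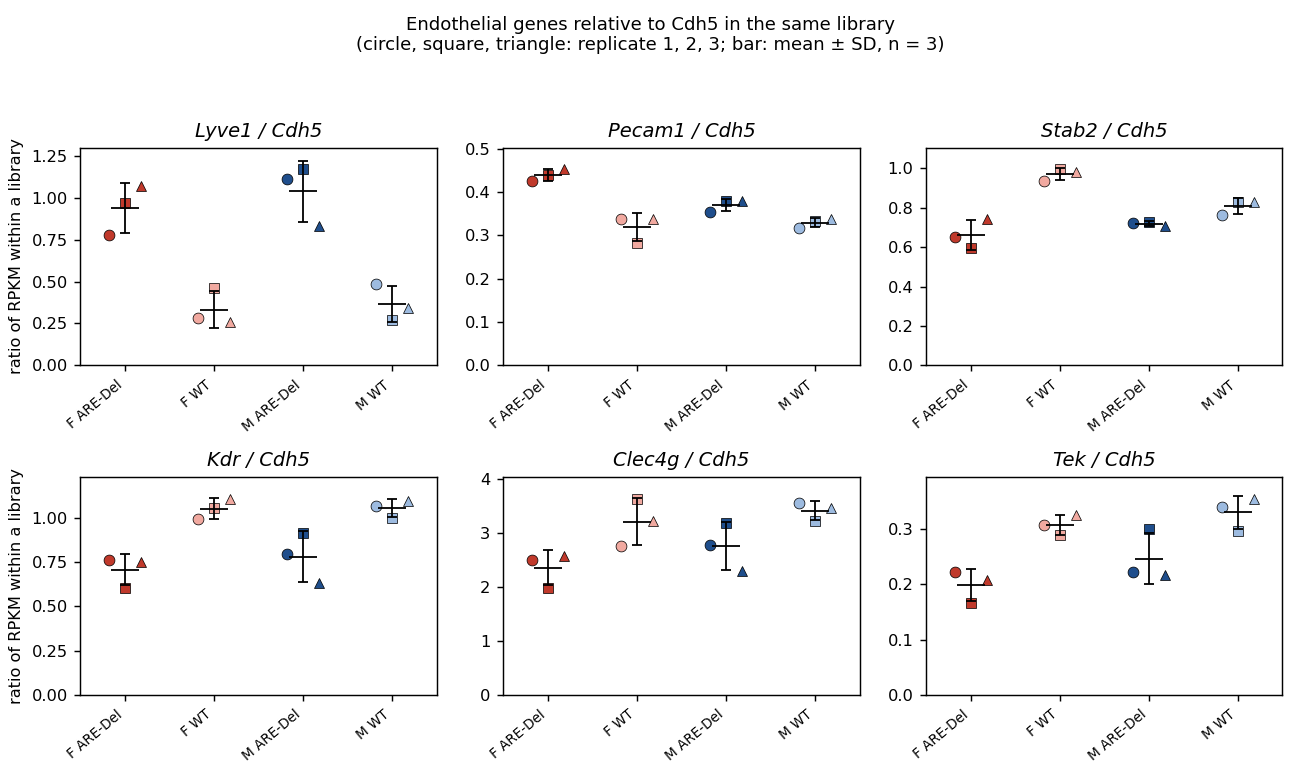
Ratio of the RPKM of 6 genes to that of Cdh5 in the same library (points), with the mean and SD of each group of 3 (bars). Lyve1 and Pecam1 lie higher, and Stab2, Kdr and Clec4g lower, in ARE-Del than in WT libraries of both sexes without overlap, while Tek overlaps in males. Cdh5 itself was on average higher in ARE-Del livers, so a lower ratio is not by itself a lower level.

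Kupffer cells and other leukocytes share the sinusoid, and their markers moved with the same contrast. All 13 listed Kupffer cell markers were tested, of which 12 rose and 1, the haemoglobin scavenger receptor gene Cd163, fell in ARE-Del females, Cd163 by 1.48 on the log2 scale (limma, adjusted p = 0.00341). In ARE-Del males 11 rose and 0 fell. Their summed RPKM was 650 to 769 in female ARE-Del livers and 139 to 238 in female WT livers, and 360 to 437 in male ARE-Del livers and 100 to 158 in male WT livers, with none of them at 0 in any library. Of 10 monocyte and macrophage markers 7 were tested, of which 7 rose in females and 6 in males, with sums of 143 to 181 RPKM in female ARE-Del livers and 14.5 to 22.0 RPKM in female WT livers, and of 87.0 to 109 RPKM in male ARE-Del livers and 10.1 to 19.6 RPKM in male WT livers. Of 10 T and NK cell markers 7 were tested, and 7 rose in females and 6 in males. The 10 summed to 10.1 to 15.5 RPKM in female ARE-Del livers and 1.39 to 2.62 RPKM in female WT livers. In males they summed to 6.81 to 10.2 RPKM in ARE-Del livers and 1.14 to 1.84 RPKM in WT livers. With WT sums this low, not all 7 could have passed the filter through WT libraries alone. The filter thus favoured genes high in ARE-Del livers, and these counts are no independent support. Over all tested genes, 25.8% were called higher in females and 19.5% in males. Mrc1 and Pecam1 are also made by leukocytes. The part of leukocytes, Kupffer cells included, in the changes of Lyve1, Mrc1 and Pecam1 was not tested, nor in which liver cells Lyve1 was expressed. 0 of 5 platelet markers passed the filter; the 4 found summed to 0.853 to 1.47 RPKM in female ARE-Del livers and 0.337 to 0.790 RPKM in female WT livers.

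The tested genes outside the 10 with the most similar pattern over the 12 libraries were ranked by the root mean square difference of log2 values, each gene centred on its own mean. Nearest to Lyve1 were Timd4, a Kupffer cell receptor for dying cells, at 0.307, then H2-D1, a class I antigen-presenting molecule, at 0.319 and Tap2, a peptide transporter, at 0.331. Timd4 rose by 1.15 ± 0.22 in females and 1.38 ± 0.22 in males (limma, adjusted p = 0.00182 and 0.000918). It was picked for its likeness to Lyve1 over these same libraries, so its rise is no independent support. Nearest to Pecam1 were the kinase gene Fyn at 0.0859, Slc43a2 at 0.108 and Cd38 at 0.109. Nearest to Mrc1 were Dse at 0.173, Cd38 at 0.177 and Itga9 at 0.180. The smallest difference for Lyve1 was thus 0.307, larger than any of those for Pecam1 or Mrc1.

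Other genes of the sinusoidal endothelium gave no call in the direction of Lyve1. Of 15 listed, 14 were tested, and 0 rose in either sex, where 25.8% of all tested genes were called higher in females and 19.5% in males. The share called lower in females was 5.53%. Bmp6 and Rspo3, an iron-regulating and a Wnt-enhancing signal to hepatocytes, fell in females, by 0.41 ± 0.12 and 0.29 ± 0.08 on the log2 scale (limma, adjusted p = 0.0186 and 0.0171). Bmp6 averaged 0.406 RPKM in female ARE-Del livers and 0.894 RPKM in female WT livers, and Rspo3 averaged 0.796 and 1.18 RPKM in the same groups. In males Bmp6 and Rspo3 stood at -0.01 and -0.05 (limma, adjusted p = 0.949 and 0.708). Of the 12 fits that left out 1 library, the call in females held in 9 for Bmp6 and in 9 for Rspo3. It was lost without female WT 1 for both (-0.26 and -0.25), and for Rspo3 also without the library labelled female ARE-Del 2 (-0.22). The list's median was -0.06 in females and 0.20 in males. Ehd3, an endocytic trafficking protein, was at -0.39 in females and 0.26 in males, and Dnase1l3, a secreted nuclease, at 0.34 and 0.42, none of these called.

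Pan-endothelial genes, expressed in endothelium of every organ, were tested in 17 of 25 cases, and 3 rose in females and 1 in males, with medians of 0.10 and 0.19. For comparison, 25.8% of all tested genes were called higher in females and 19.5% in males. The ETS factor gene Fli1 rose by 0.47 ± 0.08 in females and 0.30 ± 0.08 in males (limma, adjusted p = 0.000683 and 0.0187), Notch1 by 0.42 in females (adjusted p = 0.00216) and the adhesion molecule gene Icam2 by 0.40 in females (adjusted p = 0.0421). Of the fits that left out 1 library, Icam2 kept its call in 3 of 12. Fli1 lay at 0.272 to 0.615 RPKM in female WT livers and at 0.274 to 0.406 RPKM in male WT livers. It thus passed the filter of 0.5 RPKM only with its ARE-Del libraries, and its rise is no independent support. Fli1 and Notch1 are also expressed in leukocytes. S1pr1, listed as Edg1, the receptor for sphingosine phosphate, was at -0.17 and -0.19 and not called. Of 11 genes of large vessels and capillarisation 4 were tested, and 2 rose in females and 1 in males. Plvap, which forms the diaphragms of fenestrated and continuous capillaries, rose by 0.38 ± 0.10 in females and 0.66 ± 0.10 in males (limma, adjusted p = 0.0123 and 0.000622), to 11.3 RPKM in female ARE-Del livers, against 8.44 RPKM in female WT livers, and to 8.91 RPKM in male ARE-Del livers, against 5.27 RPKM in male WT livers. Its female call was lost under median-of-ratios scaling (0.24, adjusted p = 0.11) and its male call when scaled to pan-endothelial genes (0.47, adjusted p = 0.073). Vwf, the von Willebrand factor gene, rose by 0.27 in females (limma, adjusted p = 0.0104), with group means of 0.598 RPKM in female ARE-Del livers and 0.325 RPKM in female WT livers. It lay at 0.550 to 0.650 RPKM in female ARE-Del livers and at no more than 0.483 RPKM elsewhere. Vwf thus passed the filter of 0.5 RPKM only through the group where it was high, and its rise is no independent support. Cd34 did not pass the filter. Of 4 lymphatic genes 1 was tested, Prox1, which is also a hepatocyte factor; it rose in males by 0.59 (limma, adjusted p = 0.0282). That call held in 9 of the 12 fits that left out 1 library, was lost without male ARE-Del 3 (0.34), male WT 1 (0.55) or male WT 2 (0.58), and was lost under each of the 3 scalings (0.40 to 0.46).

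Around Kdr, 7 of 9 VEGF ligands, receptors and co-receptors were tested. The co-receptor gene Nrp2 fell in both sexes, by 0.44 ± 0.10 in females and 0.31 ± 0.10 in males (limma, adjusted p = 0.00472 and 0.0438), and averaged 1.06 RPKM in female ARE-Del livers and 1.78 RPKM in female WT livers, and 0.797 RPKM in male ARE-Del livers and 1.21 RPKM in male WT livers. The male call held in 4 of the 12 fits that left out 1 library, and the change was -0.23 without male ARE-Del 3. Vegfa, the ligand of Kdr, was at -0.05 and -0.03, Vegfb at -0.24 and -0.07 and Nrp1 at -0.13 and -0.17 in females and males, none called. Around Tek, 2 of 5 angiopoietin and Tie genes were tested and 0 passed in either sex, also at an unadjusted p below 0.05: Tie1 was at 0.10 and 0.23 and the phosphatase gene Ptprb at 0.01 and 0.36. Angpt1, Angpt2 and Angpt4 did not pass the filter. Over all tested genes, 41.8% in females and 35.2% in males had an unadjusted p below 0.05.

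Around Eng, 17 of 19 genes of endoglin, BMP9 and TGF-beta signalling were tested, and 6 rose in females and 5 in males with list medians of 0.16 and 0.19. Over all tested genes, 25.8% were called higher in females and 19.5% in males, and 5.53% and 2.04% lower. These shares are also the background for the counts of the lists below. Acvrl1, which encodes ALK1, the signalling receptor that pairs with endoglin, rose by 1.00 ± 0.09 in females and 0.55 ± 0.09 in males (limma, adjusted p = 4.84e-06 and 0.00124). It averaged 1.81 RPKM in female ARE-Del livers and 0.402 RPKM in female WT livers, and 0.883 RPKM in male ARE-Del livers and 0.289 RPKM in male WT livers. Its WT libraries lay at 0.258 to 0.510 RPKM in females and at 0.216 to 0.331 RPKM in males. Acvrl1 thus passed the filter of 0.5 RPKM only with its ARE-Del libraries, and its rise is no independent support. Tgfbr2, the type II TGF-beta receptor gene, rose by 0.98 ± 0.11 and 0.38 ± 0.11 (limma, adjusted p = 2.87e-05 and 0.0314) and Tgfb1, the ligand, by 0.81 ± 0.10 and 0.42 ± 0.10 (adjusted p = 7.87e-05 and 0.014) in females and males. Id1, a target of BMP signalling, rose by 0.78 ± 0.27 in females (limma, adjusted p = 0.0476) and was at 0.77 in males (adjusted p = 0.0629); its female call held in 4 of 12 fits that left out 1 library and was lost without female WT 2 (0.47). The male call of Tgfbr2 was lost under median-of-ratios scaling (0.27) and in 4 of those 12 fits. Tgfb1 and Tgfbr2 are also expressed in macrophages and T cells. Around Cdh5, 11 of 12 junction partners were tested, and 4 rose in females and 2 in males. The catenin genes Ctnnd1 (0.38 and 0.32) and Ctnna1 (0.35 and 0.39) rose in both sexes, and F11r (0.32) in females. These 3 genes are also expressed in hepatocytes and lost their calls when libraries were scaled to the pan-endothelial genes. Around the stabilins and Mrc1, 10 of 11 other scavenger and endocytic receptors were tested, of which 5 rose in females and 4 in males, and 1, Cd36, fell in males. Marco and Msr1, scavenger receptors of macrophages, rose by 3.09 and 1.10 in females and by 3.24 and 0.83 in males, Scarb1, the receptor for high-density lipoprotein, by 0.64 and 0.56, and Scarf1, an endothelial scavenger receptor, by 0.61 and 0.52.

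Of the remaining cell types of the liver, 8 of 10 stellate cell markers were tested, and 5 rose in females and 1 in males, with summed RPKM of 23.1 to 28.2 in female ARE-Del livers and 14.3 to 20.2 in female WT livers, and 13.8 to 21.1 in male ARE-Del livers and 9.21 to 14.5 in male WT livers. Of 6 cholangiocyte markers 2 were tested and 1, Sox9, rose in each sex. Of 8 hepatocyte markers 2 rose in females and 5 in males, and 0 of 2 tested erythroid markers passed the test in either sex. By comparison, 25.8% of all tested genes were called higher in females and 19.5% in males. The part of the cell types named here in the members' values was not tested. Without the library labelled female ARE-Del 2, 34 of the 37 list genes that the naming rule took and that were called in females kept their call; the exceptions were Rspo3 (-0.22), Icam2 (0.34) and the pericyte gene Rgs5 (0.60).

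**Figure D5:**
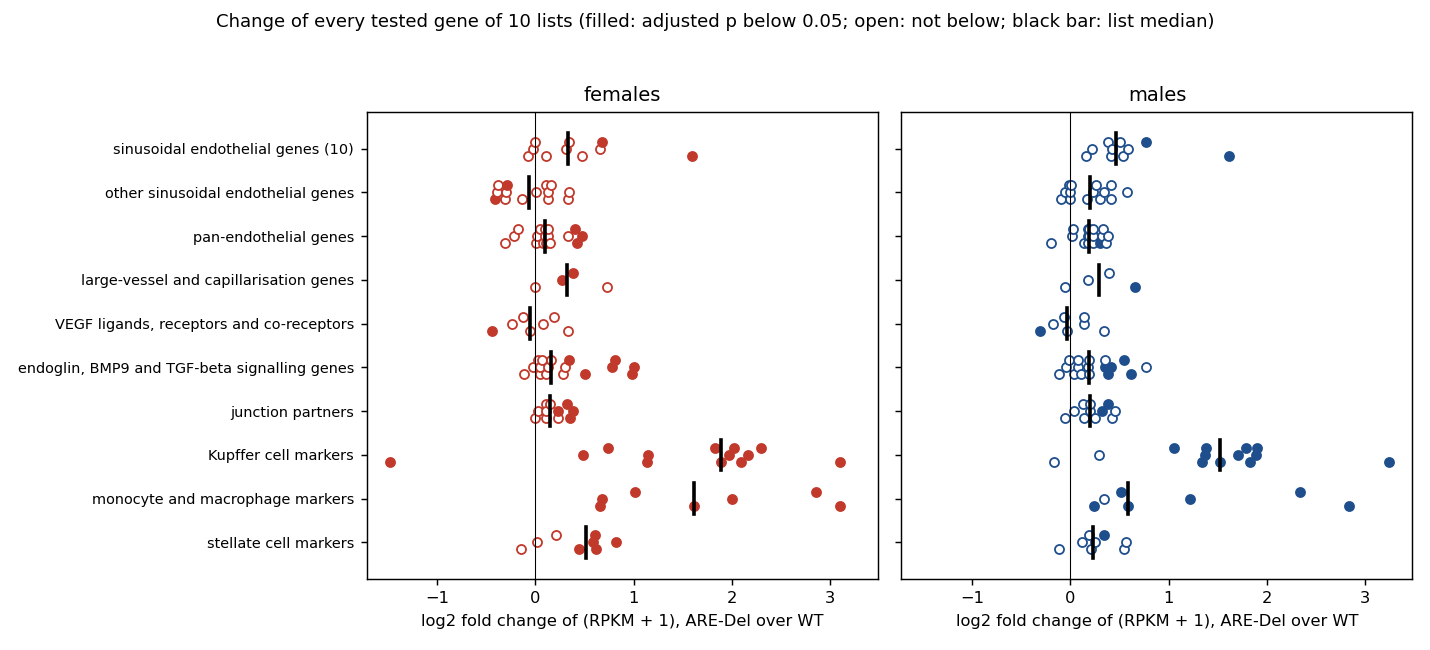
Log2 fold change (ARE-Del over WT) of every tested gene of 10 lists in females (left) and males (right); filled points have an adjusted p below 0.05 and black bars are list medians. Most Kupffer cell markers lie above 1, whereas the 10 sinusoidal endothelial genes, apart from Lyve1, lie below 1.

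The series asks how gene expression differs between the sexes. The effect of the allele did not pass a test of difference between females and males for any of the 10 genes (limma interaction, 0 called and 0 at an unadjusted p below 0.05, where 0.568% of all genes were called). It was also 0 without the library labelled female ARE-Del 2, where 0.615% of all genes were called. For Lyve1 the interaction was -0.02 ± 0.33 (adjusted p = 0.991), and for Stab2, the member farthest from 0, it was -0.43 ± 0.33 (adjusted p = 0.729). Pecam1 and Mrc1, each called in 1 sex, had interactions of 0.14 ± 0.28 (adjusted p = 0.925) and -0.11 ± 0.36 (adjusted p = 0.959). All 10 genes were on average higher in females than in males on the log2 scale, in ARE-Del livers with a median difference of 0.23 and in WT livers with one of 0.45, where the median over all genes was 0.04 in both. These medians rested on single libraries. In ARE-Del livers the median was 0.11 without female ARE-Del 3 (8 of 10 higher in females), 0.13 without male ARE-Del 3 (6 of 10), 0.44 without female ARE-Del 1 and 0.38 without male ARE-Del 1. In WT livers it was 0.25 without female WT 1 and 0.68 without female WT 2. None passed the adjusted threshold in ARE-Del livers, where 22.4% of all genes did, and 1, Pecam1 (0.46 ± 0.20), had an unadjusted p below 0.05. None passed it in WT livers either, where 9.76% of all genes did, while 4 had an unadjusted p below 0.05: Stab1, Stab2, Eng and Mrc1. The farthest was Stab2, at 0.64 ± 0.23 in WT livers (limma, adjusted p = 0.105), with 6.72, 2.96 and 5.36 RPKM in female livers, against 2.06, 3.08 and 3.09 RPKM in male livers. Without female WT 2, 8 of the 10 passed in WT livers, against 10.7% of all genes, the exceptions being Lyve1 and Clec4g. Without female WT 1 instead, 0 passed at either threshold, against 6.2% of all genes at the adjusted one. Without the library labelled female ARE-Del 2, the ARE-Del livers gave 0 calls among the members.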

How the data were processed

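Liver RNA of C57BL/6 mice was sequenced in 12 libraries (TruSeq RNA kit, per the labels' protocols). The authors deposited RPKM; their processing notes name Trimmomatic 0.30, TopHat2 2.0.8, Partek, GenomeStudio 6.6 and the mm9 build (per the submitters' processing notes). How reads were counted, and whether by strand, is not given in the sources used here, so reads of overlapping or antisense genes cannot be told apart. Fewer reads mean larger errors at low RPKM.

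Genes of at least 0.5 RPKM in at least 3 libraries were kept (10568), and limma 3.58.1 (R 4.3.3) modelled log2(RPKM + 1) with 1 mean for each of the 4 groups over all 12 libraries (eBayes with trend, Benjamini-Hochberg over all tested genes, threshold 0.05). A fold change on this scale understates that of low genes. All 10 members passed the filter, so no permutation test was needed. Alternatives were 3 scalings, another pseudocount (0.1), no filter, a filter at 1 RPKM, only the 6 libraries compared, no variance trend, a replicate block and each library left out; leaving out female WT 2 and male ARE-Del 3 together, and scaling to pan-endothelial genes without female ARE-Del 2, were chosen after seeing the data.

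The members and the 17 other gene lists were chosen with earlier results of these data known. Of 186 list entries, 171 matched by symbol, 7 by synonym and 8 were not matched. All members were named; from each list up to 4 genes were named, the called ones with the largest change in females and then those of highest RPKM, and for each called member the 3 genes of most similar pattern. Cd163, Cd36, Cd34, the angiopoietins and Sox9 were named to complete small counts or after their values were seen. A gene that the lists hold is counted with the others but not reported here. Promoter sequences came from RefSeq (GRCm38.p6). Descriptions and figures were made in Python 3.11.15 with matplotlib 3.10.9, numpy 2.4.6 and pandas 2.3.3.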

Additional observations from a re-analysis of the deposited data

How the results depend on the processing

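Lyve1 kept its direction and its call in both sexes under all 23 alternatives, with log2 changes of 1.38 to 2.03 in females and 1.42 to 2.17 in males. Pecam1 lost its call in females under 8 of 23 alternatives (0.43 to 0.97), and Mrc1 lost its call in males under 13 of 23 (0.58 to 0.89). The cause of these differences was not tested. Values of RPKM without read totals limit what can be said of the precision of Tek, Pecam1 and Lyve1 in WT livers, all near 1 to 2 RPKM.

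The number of members called higher in females was 2, and 1 with no filter, with only the 6 libraries compared, with the replicate block, without female WT 2 and male ARE-Del 3 and when scaled to pan-endothelial genes without female ARE-Del 2. In males it was 2, and 1 with median-of-ratios scaling, quantile normalization, no filter and the replicate block, 5 with only the 6 libraries compared and 6 without female WT 2 and male ARE-Del 3. Over all genes in females, median-of-ratios scaling gave 1750 lower calls (584 as deposited), quantile normalization 1616 higher (2722) and 2497 lower, and scaling to pan-endothelial genes 969 higher and 377 lower (891 and 249 also without female ARE-Del 2). In males, median-of-ratios scaling gave 1217 higher (2056) and 967 lower (216), quantile normalization 923 and 1153, scaling to pan-endothelial genes 426 higher (459 also without female ARE-Del 2), and leaving out female WT 2 and male ARE-Del 3 140 lower. The interaction had 60 calls, and 106 with quantile normalization, 30 when scaled to pan-endothelial genes, 14 with a pseudocount of 0.1, 30 with no filter, 32 with a filter at 1 RPKM, 39 with no variance trend and 0 with the replicate block. Females against males in ARE-Del livers gave 885 calls, against 2370, when scaled to pan-endothelial genes.

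Replicate numbers gave no clear pairing of the libraries. Deviations of same-numbered ARE-Del and WT libraries correlated at -0.0772, 0.113 and 0.175 in females and at -0.0529, -0.171 and 0.116 in males. Those of differently numbered libraries spanned -0.245 to 0.0991 in females and -0.176 to 0.23 in males. With so few libraries these correlations cannot exclude a pairing. With the block, Pecam1 in females and Mrc1 in males were not called (limma, adjusted p = 0.0603 and 0.0819) and Lyve1 was called in both sexes. The block lies within sex and was not run for females against males.

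Directions turned for uncalled values near 0. In females these were Clec4g (-0.040 with median-of-ratios scaling, -0.14 without female WT 2 and male ARE-Del 3) and Stab2 (0.0049 with a pseudocount of 0.1). In males they included Tek (-0.030), Icam2 (-0.018) and Vwf (-0.0092) when scaled to pan-endothelial genes, with or without female ARE-Del 2, Vwf (-0.00079) with quantile normalization, and Bmp6 (0.028) without female WT 2 and male ARE-Del 3. The interaction of Lyve1 was 0.0087 with quantile normalization and 0.065 when scaled to pan-endothelial genes, where that of Stab1 was 0.020. In females against males, scaling to pan-endothelial genes gave Clec4g -0.028 and Tek -0.14 in ARE-Del livers and Lyve1 -0.032 in WT livers, and quantile normalization gave Tek -0.042 in ARE-Del livers.

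Leaving out each library in turn gave 2083 to 2753 genes higher, 396 to 725 lower and 1 to 5 members higher in females, and 1122 to 2223, 122 to 257 and 1 to 5 in males. It gave 11 to 114 interaction calls, 1453 to 2498 calls and 0 to 1 members for females against males in ARE-Del livers, and 535 to 1126 calls and 0 to 8 members in WT livers. Over these fits the female change spanned -0.28 to 0.21 for Stab2, -0.14 to 0.27 for Clec4g, -0.32 to 0.17 for Kdr and -0.30 to 0.10 for Tek, and the male change -0.090 to 0.039 for Bmp6 and -0.094 to 0.0094 for Rspo3. The interaction spanned -0.25 to 0.26 for Lyve1, -0.29 to 0.12 for Stab1, -0.11 to 0.34 for Pecam1, -0.41 to 0.11 for Cdh5, -0.41 to 0.010 for Eng and -0.46 to 0.14 for Mrc1. Females against males in ARE-Del livers spanned -0.016 to 0.50 for Lyve1, -0.077 to 0.30 for Clec4g, -0.012 to 0.32 for Kdr and -0.071 to 0.12 for Tek.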
